A study of Caenorhabditis elegans with 15 samples.

Results

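The genes described here encode the contractile proteins of muscle in the nematode Caenorhabditis elegans, namely myosin heavy and light chains, paramyosin, actin, tropomyosin and troponin T. Members were chosen by the sequence name of 10 listed genes. Of these, 9 genes had a probe under the listed name, with 12 probes in all. The name listed for myo-1 (R06C10.1) matched no probe, and myo-1 was taken by its symbol, which RefSeq gives to the probe R06C7.10. This made 13 of the 19084 gene probes on the array. Of the 13, 8 passed the filter on weak spots and are called in use, against 5347 of all probes. The other 5, which are mlc-1 and the 4 probes of lev-11, are described separately because most of their spots were weak.

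The data were 15 arrays carrying 2 dyes, with 5 arrays each for worms exposed to sediment of the Danube, the Elbe or the Rhine. Danube is the least and Elbe the most contaminated of these sediments according to the study, and Danube served as the baseline. All groups were wild-type worms of the Bristol strain N2, L4 larvae and young adults at the start, exposed for 48 h in 24 vials with 0.5 g of wet sediment, E. coli as food and 20000 worms per vial, and RNA came from whole animals. The sample carried Cy5 on every array and a common reference carried Cy3. The reference was pooled RNA of worms from all sediments and of a laboratory control without sediment. No array of an unexposed group was used here, and the sediment of a river was combined from subsamples, so the 5 replicates of a group were repeat exposures and may share 1 sediment sample.

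A muscle contracts when thick filaments of myosin pull on thin filaments of actin. In C. elegans the thick filament is built on a core of paramyosin, which is the product of unc-15. Body wall muscle, which moves the animal, uses the heavy chains UNC-54 (myosin B) and MYO-3 (myosin A). Pharyngeal muscle, which pumps in food, uses MYO-1 and MYO-2 instead. Tropomyosin and the troponin complex lie along the thin filament and make contraction depend on calcium. A whole-animal sample therefore holds both muscles, which use different heavy chain genes. Whether these genes report on those muscles alone was not tested. In whole-animal samples, fewer muscle cells and less RNA per cell cannot be told apart.

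Array quality bears on several values below. Median signals of the arrays ranged from 1322 to 1984 in Cy5 and from 686.8 to 1586 in Cy3, and 45.7% to 61.6% of gene spots had the lowest confidence grade. Replicates of a sediment were weakly alike, with correlations of log2 ratios over the 5347 probes of 0.06 to 0.34. Danube replicate 2 stood apart from the other Danube arrays. On it 23.1% of all probes in use lay below -1 on the log2 scale, against 2.52% to 11.7% on the other Danube arrays. The image numbers in the file headers form a lower and a higher run, called slide series here. What separates these runs is not given in the sources used here. Danube replicates 1 to 4 were in the lower run, while Danube replicate 5 shared the higher run with all Elbe and Rhine arrays. Apart from that 1 array, slide series and sediment cannot be told apart in comparisons with Danube.

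Values are log2 ratios of sample to reference after normalization within each array, so 0 means the level of the reference pool. The heavy chain unc-54 (F11C3.3), the major myosin of body wall muscle, was above the lowest confidence grade on all 15 arrays. Its Danube replicates 1 to 5 read -0.27, -1.66, -0.20, -0.26 and 0.60. Its Elbe replicates read -0.35, -0.48, -0.26, -0.06 and -0.34, and its Rhine replicates -0.08, -0.15, -0.17, -0.16 and -0.10. The Rhine arrays thus lay close together, the Elbe arrays mostly below them with 1 above, and the Danube arrays on both sides of both groups.

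The second body wall heavy chain, myo-3 (K12F2.1), varied much more. Danube replicates read -0.19, -5.24, -0.26, -1.81 and 0.48. Elbe replicates read -0.45, 0.74, -0.32, 0.22 and -0.18, and Rhine replicates 0.30, 0.11, -0.48, 0.73 and -0.02. Danube replicates 2 and 4 were the lowest of all 15 arrays, and the other 3 Danube arrays lay among those of Elbe and Rhine. Both low values came from spots of the lowest confidence grade, with confidence scores of 0.01 and 0.05 on a scale from 0 to 1.

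The pharyngeal heavy chain myo-2 (T18D3.4) had the same 2 low arrays. Danube replicates read -0.38, -5.95, 0.01, -1.75 and -0.35, Elbe replicates -0.06, -0.45, -0.02, 0.19 and -0.23, and Rhine replicates 0.10, 0.56, 0.16, 0.66 and -0.54. Here the spots passed the confidence filter on both low arrays, with scores of 0.10 and 0.08. The remaining Danube arrays overlapped those of Elbe and Rhine.

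The other pharyngeal heavy chain, myo-1 (R06C7.10), did not share that pattern. Danube replicates read -0.43, -0.34, -0.98, -0.93 and -0.11. Replicate 2 was thus not among the low arrays, but its spot had the lowest confidence grade, with a score of 0.01. Elbe replicates read -0.43, -0.21, 0.12, -0.79 and -0.73, and Rhine replicates -0.37, -0.20, 1.85, -0.26 and -0.09. Rhine replicate 3 was far above the other 14 arrays, and apart from it the 3 groups overlapped. The spots of myo-1 were weak, with confidence scores of 0.01 to 0.40.

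**Figure D1:**
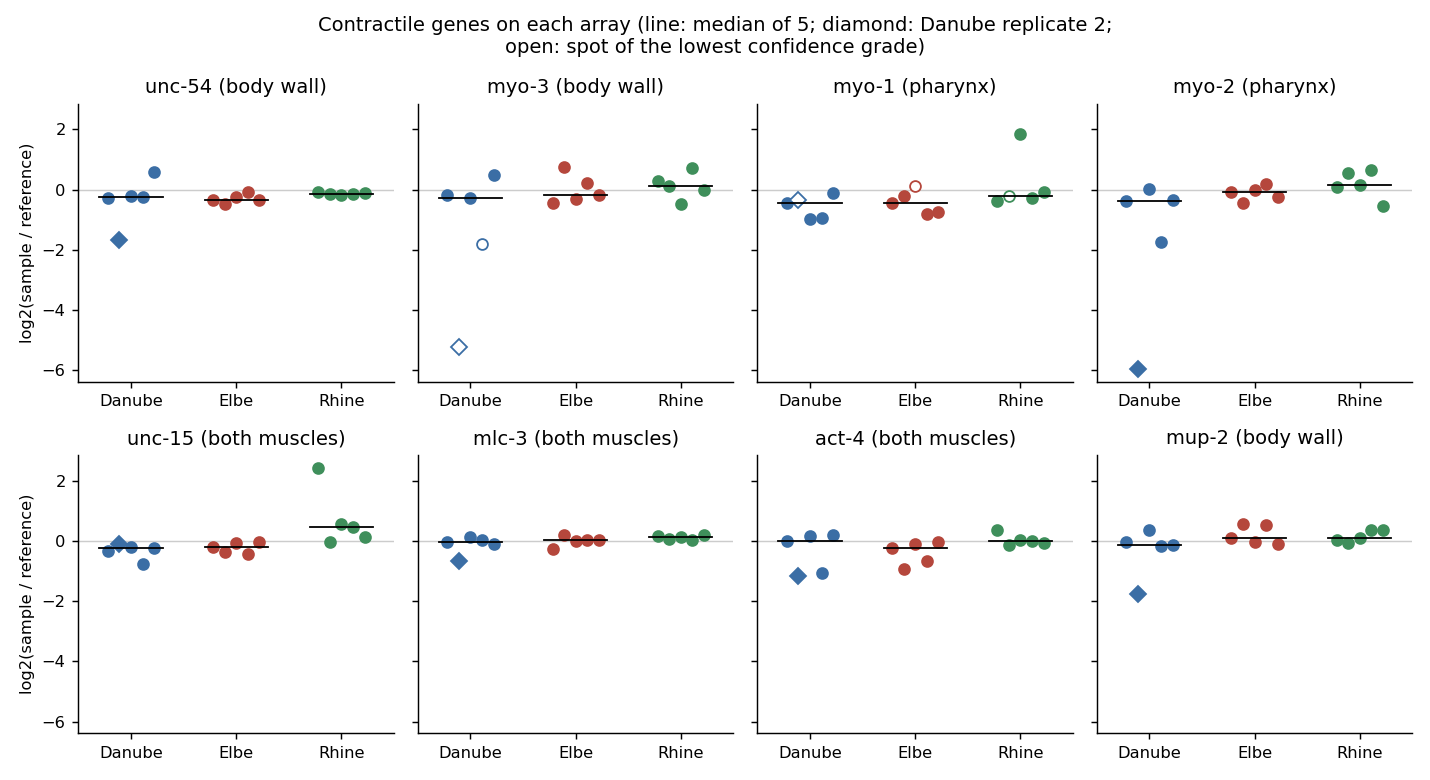
Log2 ratio of sample to reference for the 8 contractile genes in use on each of the 15 arrays, 5 per sediment, with the median of each sediment as a line, Danube replicate 2 as a diamond and spots of the lowest confidence grade as open symbols. The lowest points are Danube replicate 2 for myo-2 (-5.95) and myo-3 (-5.24), and the highest are Rhine replicate 1 for unc-15 (2.44) and Rhine replicate 3 for myo-1 (1.85).

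The spot signals show where the low values arose. On Danube replicate 2 the Cy5 signal of myo-2 was 153.7 and its Cy3 signal 1435, while on the other 14 arrays the Cy5 signal lay between 485.1 and 6388. For myo-3 the Cy5 signal was 213.1 and the Cy3 signal 2059. The sample channel was low there, and the reference channel was within its range on the other arrays for both genes. For myo-1 the same array gave 1122 in Cy5 and 984.4 in Cy3, from a spot of the lowest confidence grade. The unnormalized log2 ratio on Danube replicate 2 was -3.22 for myo-2 and -3.27 for myo-3, and normalization for intensity moved both further down. In the authors' own processed values, which are Cy5 signals relative to the median of the gene, Danube replicate 2 stood at -4.73 for myo-2, -4.04 for myo-3, -1.81 for unc-54 and 0.00 for myo-1 on the log2 scale.

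**Figure D2:**
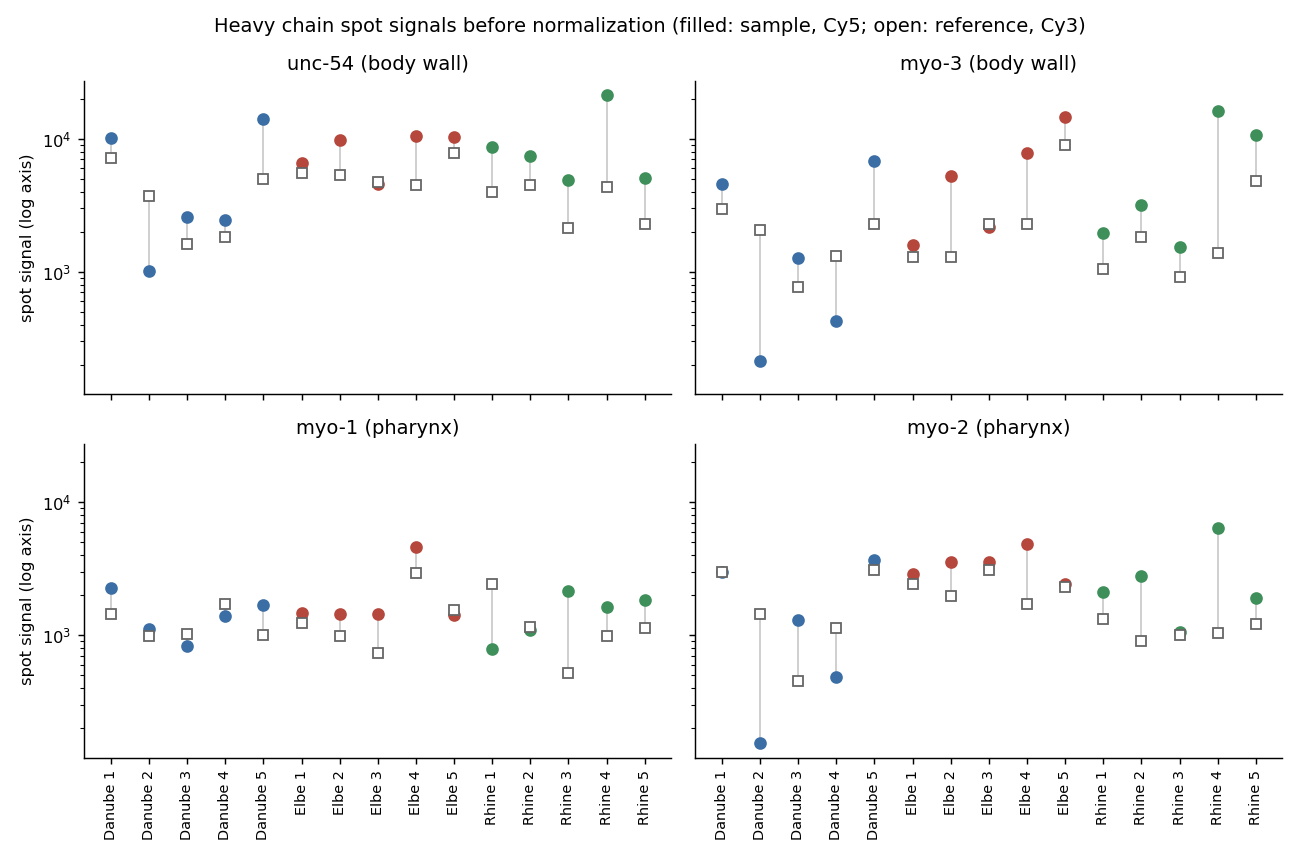
Spot signals of the 4 heavy chain genes before normalization on a log axis, by array, with the sample (Cy5) filled and the reference (Cy3) open. For myo-2 on Danube replicate 2 the sample lies at 153.7 and the reference at 1435.

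Set against Danube, no heavy chain passed the adjusted test. For Rhine minus Danube, myo-2 had a log2 fold change of 1.87 (SE 0.82, n = 5 per group, 95% interval 0.13 to 3.61, adjusted p = 0.369 by limma) and myo-3 1.53 (SE 0.78, interval -0.12 to 3.18, adjusted p = 0.421). The gene myo-1 followed with 0.74 (SE 0.38, interval -0.07 to 1.55, adjusted p = 0.422) and unc-54 with 0.23 (SE 0.31, interval -0.44 to 0.89, adjusted p = 0.758). The sizes for myo-2 and myo-3 rested on Danube replicate 2. Without it they were 0.80 (SE 0.34) and 0.57 (SE 0.41), while unc-54 turned to -0.10 (0.46 without Danube replicate 5) and myo-1 stood at 0.80 (SE 0.41). The value of myo-1 rested in turn on Rhine replicate 3, without which it was 0.33.

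For Elbe minus Danube the same order held, with 1.57 for myo-2 (SE 0.82, interval -0.17 to 3.31, adjusted p = 0.832 by limma), 1.41 for myo-3 (SE 0.78, interval -0.24 to 3.06, adjusted p = 0.849), 0.15 for myo-1 (SE 0.38) and 0.06 for unc-54 (SE 0.31). Without Danube replicate 2, myo-2 read 0.50 and myo-3 0.45, and unc-54 turned to -0.26. With spots of the lowest grade taken as missing, which removes both low arrays of myo-3, myo-3 read -0.01 for Elbe and 0.12 for Rhine. The 2 comparisons share the Danube arrays, so their likeness is no independent result. Within the slide series of higher number, Danube has 1 array and no replicate check. There, the Rhine mean minus Danube replicate 5 was 0.53 for myo-2, 0.30 for myo-1, -0.36 for myo-3 and -0.73 for unc-54.

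Elbe and Rhine could be compared within 1 slide series. The differences Elbe minus Rhine were -0.17 for unc-54 (SE 0.31, interval -0.83 to 0.50), -0.12 for myo-3 (SE 0.78, interval -1.77 to 1.53), -0.30 for myo-2 (SE 0.82, interval -2.04 to 1.44) and -0.60 for myo-1 (SE 0.38, interval -1.41 to 0.21). Without Rhine replicate 3 myo-1 stood at -0.18, and without Rhine replicate 4 myo-2 stood at -0.18 and myo-3 at 0.03. Without Elbe replicate 2 myo-3 stood at -0.31. None passed the adjusted test. The intervals of unc-54, myo-2 and myo-3 are wide because the Danube arrays enter the shared estimate of the spread. For unc-54 the SD was 0.81 in Danube, 0.15 in Elbe and 0.04 in Rhine. In the authors' values all 4 differences had the opposite sign.

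Body wall and pharynx muscle can be compared within an array, as the mean log2 ratio of unc-54 and myo-3 minus that of myo-1 and myo-2. This difference was 0.24 ± 0.38 (SD, n = 5) in Danube, 0.11 ± 0.35 in Elbe and -0.19 ± 0.66 in Rhine. The 5 Danube arrays read 0.18, -0.30, 0.25, 0.31 and 0.77. The Elbe arrays read -0.15, 0.46, -0.34, 0.38 and 0.22, and the Rhine arrays 0.25, -0.21, -1.33, 0.09 and 0.25. The groups overlapped over most of their range, and the lowest value belonged to Rhine replicate 3, where myo-1 was high. The differences between sediments were -0.12 for Elbe minus Danube, -0.43 for Rhine minus Danube and 0.30 for Elbe minus Rhine. Elbe minus Danube was -0.26 without Danube replicate 2 and 0.0070 without Danube replicate 5. Without Rhine replicate 3, Rhine minus Danube was -0.14 and Elbe minus Rhine 0.02, and with spots of the lowest grade as missing Rhine minus Danube was -1.21. The sign of Rhine minus Danube turned with a single loess curve per array (0.060), with median centring (0.53), with the Cy5 signal alone (0.30) and in the authors' values (0.29), so these data give no settled direction for body wall against pharynx. On Danube replicate 2 both means were low, at -3.45 for body wall and -3.15 for pharynx.

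On Danube replicate 2 the heavy chains of the same muscle read far apart. There, the log2 ratio of myo-3 minus its body wall partner unc-54 was -3.59. That of myo-2 minus its pharyngeal partner myo-1 was -5.62, while myo-3 minus myo-2, which belong to different muscles, was 0.71. The myo-3 and myo-1 spots on that array had the lowest confidence grade (0.01 each), so each of these differences includes a weak spot. Whether the low values follow a muscle was not tested. Over the other 14 arrays, myo-3 minus myo-2 ranged from -0.64 to 1.19. The correlation of myo-3 and myo-2 over 15 arrays was 0.947, and 0.659 without Danube replicate 2. Within muscles it was 0.83 for unc-54 and myo-3 and 0.127 for myo-1 and myo-2, and without that array 0.257 and 0.278. All of these arrays share the reference pool, and the correlations are descriptions.

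**Figure D3:**
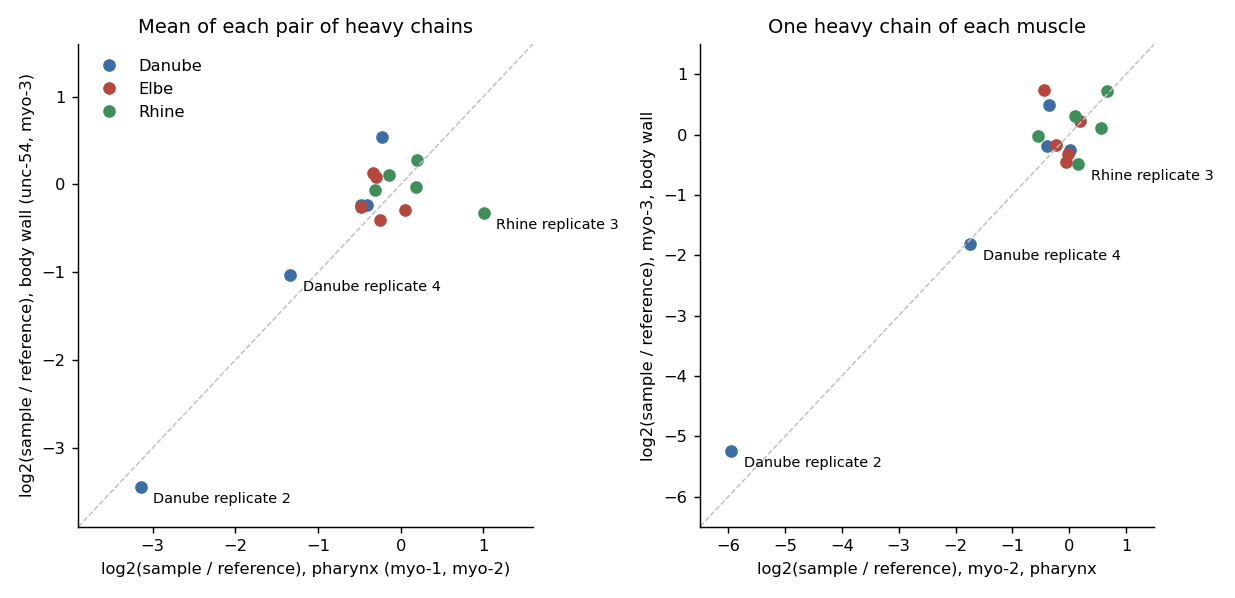
Body wall against pharynx heavy chains on the 15 arrays as log2 ratios of sample to reference, with the mean of each pair on the left, myo-3 against myo-2 on the right and equality as a dashed line. Danube replicate 2 lies near the line in both plots, at -3.15 and -3.45 on the left, and Rhine replicate 3 lies below it on the left, with a difference of -1.33.

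Paramyosin was the 1 member in use whose Rhine and Danube arrays did not overlap. The gene unc-15 (F07A5.7), which encodes the rod protein at the core of thick filaments in both muscles, read 2.44, -0.02, 0.56, 0.46 and 0.13 in Rhine. It read -0.32, -0.10, -0.21, -0.76 and -0.24 in Danube, and -0.20, -0.37, -0.08, -0.44 and -0.01 in Elbe. Every Rhine array lay above every Danube array, though replicate 2 of each lay close to the other, and Rhine replicate 2 overlapped with Elbe replicate 5. Such upward separation of Rhine from Danube was seen in 1 of 8 members and in 1.87% of the 5347 probes in use. With median centring in place of loess the Rhine and Danube arrays of unc-15 overlapped. Rhine replicate 2 then read -0.18, and Danube replicates 1, 3 and 5 read 0.28, -0.06 and 0.09. The unc-15 spots were above the lowest grade on all arrays, with Cy5 signals of 1594 to 7818.

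The log2 fold change of unc-15 was 1.04 for Rhine minus Danube (SE 0.37, 95% interval 0.25 to 1.83, adjusted p = 0.338 by limma) and -0.93 for Elbe minus Rhine (SE 0.37, interval -1.72 to -0.15, adjusted p = 0.411). Elbe minus Danube was 0.10 (SE 0.37, interval -0.68 to 0.89). None passed the adjustment. Rhine replicate 1, whose log2 ratios had the widest spread of all arrays (SD 1.16), supplied the highest value, and without it the differences were 0.61 (SE 0.23) and -0.50. With median centring that array read 1.25, below Rhine replicate 3 at 1.48. Against Danube replicate 5 alone, which is 1 array, the Rhine mean was 0.95 higher, with Rhine replicate 1 included. In the authors' processed values, where the reference is not divided out, the difference was -0.22 for Rhine minus Danube and 0.00 for Elbe minus Rhine.

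The light chain genes were measured very unequally. The gene mlc-3 (F09F7.2a), which encodes an essential light chain of muscle myosin, was the steadiest member. Danube replicates read -0.03, -0.66, 0.14, 0.03 and -0.09, Elbe replicates -0.28, 0.19, 0.01, 0.05 and 0.05, and Rhine replicates 0.15, 0.08, 0.13, 0.04 and 0.21. The groups overlapped, and Rhine minus Danube was 0.25 (SE 0.21, interval -0.19 to 0.68, adjusted p = 0.600 by limma), or 0.11 without Danube replicate 2. Its Cy5 signals were 4490 to 59622.

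The gene mlc-1 (C36E6.3), a regulatory light chain with a near-identical copy in mlc-2, was above the lowest grade on 5 of 15 arrays and on none of the 5 Elbe arrays. Its log2 ratios ranged from -0.59 to 2.26 in Danube, from 0.19 to 2.19 in Elbe and from -1.87 to 0.77 in Rhine. The fit over all 19084 probes gave 1.49 for Elbe minus Rhine (SE 0.58, adjusted p = 0.775 by limma). Whether its probe separates mlc-1 from mlc-2 is not given in the sources used here, and mlc-2 itself had no spot above the lowest grade.

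In the thin filament, actin was represented by act-4 (M03F4.2b), one of the muscle actins. Its Danube replicates read -0.00, -1.15, 0.18, -1.07 and 0.19, so replicates 2 and 4 were again low. Elbe replicates read -0.22, -0.94, -0.09, -0.67 and -0.05 and Rhine replicates 0.36, -0.12, 0.02, -0.01 and -0.07. The Elbe arrays spread almost as far down as the Danube arrays, and the Rhine arrays lay inside the Danube range except for replicate 1. Rhine minus Danube was 0.40 (SE 0.31, interval -0.25 to 1.06) and Elbe minus Rhine -0.43 (SE 0.31, interval -1.08 to 0.22), and neither passed the test. Without Danube replicate 2 the first was 0.21, and without Danube replicate 4 it was 0.23. Actin genes are close copies of each other, so this probe may also read RNA of act-1, act-2 or act-3.

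The gene mup-2 (T22E5.5) encodes a troponin T of body wall muscle. Danube replicates read -0.03, -1.77, 0.38, -0.16 and -0.12, with replicate 2 far below the rest. Elbe replicates read 0.09, 0.57, -0.04, 0.54 and -0.09, and Rhine replicates 0.03, -0.06, 0.10, 0.37 and 0.38. Elbe minus Danube was 0.55 (SE 0.34, interval -0.16 to 1.26) and Rhine minus Danube 0.50 (SE 0.34, interval -0.21 to 1.22). Without Danube replicate 2 they were 0.19 and 0.15.

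Tropomyosin, the product of lev-11, had 4 probes named by isoform letter (a, c, d and e), and none was in use. The probe for Y105E8B.1d had good spots on 11 arrays, the others on 7 (a), 6 (c) and 3 (e). The probes disagreed in sign for Rhine minus Danube, with -1.002 for a (SE 0.86), 1.20 for c (SE 0.57), 0.33 for d (SE 0.43) and 0.39 for e (SE 0.63). Adjusted p-values over all 19084 probes were 0.728 to 0.893 by limma. The values of a ranged from -3.92 to 3.01 over the 15 arrays, and without Rhine replicate 3 its Rhine minus Danube difference was -0.16, so these probes give no firm level for lev-11.

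**Figure D4:**
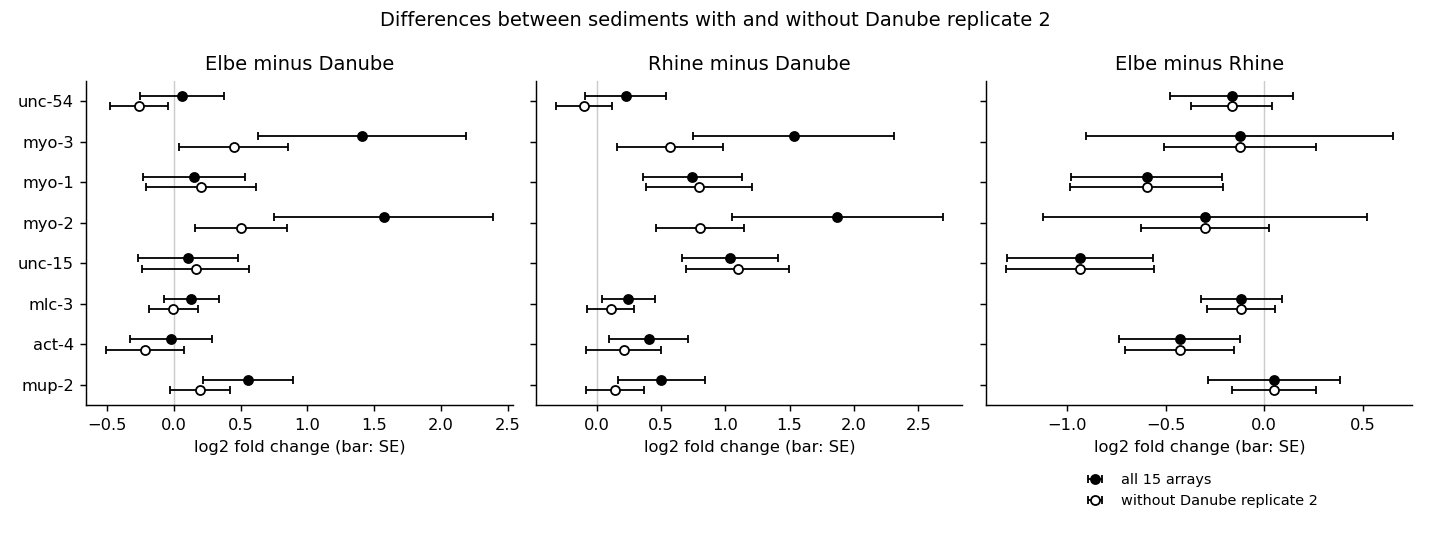
Log2 fold changes with standard errors for the 8 contractile genes in use in the 3 comparisons, from the fit over all 15 arrays (filled) and without Danube replicate 2 (open). In Rhine minus Danube, myo-2 moves from 1.87 to 0.80, myo-3 from 1.53 to 0.57 and unc-15 from 1.04 to 1.10. A fit without Rhine replicate 1, not drawn here, gives 0.61 for unc-15.

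Counted over the members, 0 of the 8 genes in use passed an adjusted p of 0.05 by limma in any comparison, against 0.0187% of all probes in use for Elbe minus Danube, 0% for Rhine minus Danube and 0% for Elbe minus Rhine. At an unadjusted p under 0.05 the counts were 0 of 8 for Elbe minus Danube (background 6.32%), 2 of 8 for Rhine minus Danube (myo-2 and unc-15, background 12.9%) and 1 of 8 for Elbe minus Rhine (unc-15, background 10.7%). By the methods' t-test the unadjusted counts were 0 of 8 (background 7.09%), 0 of 8 (7.95%) and 1 of 8 (11.7%) in the same order. That 1 member was unc-54 in Elbe minus Rhine, and unc-15 and myo-2 did not pass it. With 8 members, a count of 1 is close to these backgrounds. The fold thresholds of the study's methods, at least 1.4 or at most 0.7, were combined here with an unadjusted p under 0.05 by limma. The methods' own test, which myo-2 and unc-15 did not pass, was not used for these counts. Upward, 2 of 8 members passed in Rhine minus Danube (myo-2 and unc-15, background 11.4%). Downward, 1 of 8 passed in Elbe minus Rhine (unc-15, background 8.02%). The count was 0 of 8 downward in Rhine minus Danube (background 1.44%) and upward in Elbe minus Rhine (2.49%). It was also 0 of 8 upward and downward in Elbe minus Danube (4.34% and 1.95%).

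With the fold thresholds alone and any p, 3 of 8 members passed in Elbe minus Danube (myo-3, myo-2 and mup-2, background 25.5%), 5 of 8 in Rhine minus Danube (the same 3 with myo-1 and unc-15, background 37.9%) and 2 of 8 in Elbe minus Rhine (myo-1 and unc-15, background 32.7%). Apart from unc-15 in Rhine minus Danube, 0 of 8 members had groups that did not overlap. The backgrounds were 1.31% upward and 0.561% downward for Elbe minus Danube, 0.243% downward for Rhine minus Danube, and 0.785% upward and 2.67% downward for Elbe minus Rhine.

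The members leaned the way all probes leaned. In Rhine minus Danube 8 of 8 had a log2 fold change above 0, against 69.9% of probes in use, and their median was 0.62 against 0.24 for all. Without Danube replicate 2, 7 of 8 lay above 0 and the medians were 0.39 and 0.17. In the fit with slide series as a block 5 of 8 were above 0, and 4 of 8 in the authors' values. In Elbe minus Danube 7 of 8 lay above 0, against 57.1%, with medians of 0.14 and 0.08, and with a single loess curve per array 4 of 8 did. Without Danube replicate 5 the members' median there was 0.28. In Elbe minus Rhine 1 of 8 lay above 0, against 35.7%, with medians of -0.23 and -0.17, and in the authors' values 8 of 8 did.

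Other genes of muscle and of other tissues were set beside these from lists, which were chosen with earlier results of these data known. The share of all probes in use with an unadjusted p under 0.05 by limma differed by comparison. It was 6.32% for Elbe minus Danube, 12.9% for Rhine minus Danube and 10.7% for Elbe minus Rhine. Of the wider body wall list 5 of 7 genes were in use and 1 had an unadjusted p under 0.05, which was pat-10, a troponin C of body wall muscle, with -0.61 for Elbe minus Rhine (SE 0.23, adjusted p = 0.388 by limma). The troponin I gene unc-27 had 0.72 for Rhine minus Danube (SE 0.35, adjusted p = 0.405), or 0.45 without Danube replicate 2. Of the pharynx list 4 of 6 were in use, and beside myo-2 the pharyngeal troponin C gene tnc-2 had an unadjusted p under 0.05, with 0.70 for Rhine minus Danube (SE 0.31, adjusted p = 0.369), or 0.45 without Rhine replicate 1. The transcription factor genes of these lists, hlh-1, unc-120 and ceh-22, were not in use.

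Of 7 genes for thick filament partners and giant proteins 4 were in use, and their median in Rhine minus Danube was -0.90, or -0.42 without Rhine replicate 1, against 0.62 for the members. Among them, unc-82, a kinase needed to order thick filaments, had -0.93 (SE 0.30, adjusted p = 0.338 by limma), the titin gene ttn-1 -0.88 (SE 0.59), unc-96 -0.92 (SE 0.69) and unc-89 0.15. Without Rhine replicate 1 ttn-1 stood at -0.17, and unc-96 stood at -0.44 without Danube replicate 2, -0.49 without Rhine replicate 2 and -1.50 without Rhine replicate 3. Of 14 attachment genes 3 were in use and 1 had an unadjusted p under 0.05 (background 12.9%). This was lim-9 with 0.72 for Rhine minus Danube (SE 0.33), or 0.40 without Danube replicate 2. Of 11 genes for excitation and calcium 3 were in use, with csq-1, the calsequestrin that stores calcium, at 1.00 (SE 0.45). Of 10 other thin filament genes 3 were in use and 0 had an unadjusted p under 0.05 by limma. None of the genes in these lists passed the adjusted test.

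Lists of other cell types differed among themselves in Rhine minus Danube, and none of their genes passed the adjusted test. Of 5 genes for non-muscle myosin and actin all 5 were in use and lay above 0, against 69.9% of all probes in use. The regulatory light chain gene mlc-4 read 0.75 (SE 0.28, adjusted p = 0.338 by limma). The lowest, act-5, read 0.13, and turned to -0.041 without Danube replicate 2 and to -0.0092 without Rhine replicate 1. The list median was 0.75, or 0.44 without Danube replicate 2. Of 5 hypodermis genes 3 were in use, all collagens. All 3 had an unadjusted p under 0.05 by limma, against 12.9% of all probes in use. Their values were 1.80 for sqt-3 (SE 0.64), 0.97 for dpy-13 (SE 0.39) and 0.81 for col-19 (SE 0.28). In Elbe minus Danube sqt-3 was the 1 of them with such a p (background 6.32%), at 1.48 (SE 0.64, adjusted p = 0.783 by limma), or 0.77 without Elbe replicate 4. Without Rhine replicate 1 the Rhine minus Danube value of dpy-13 was 0.64. Over the arrays, list medians for hypodermis ranged from -1.42 to -0.22 in Danube, from -0.22 to 0.50 in Elbe and from -0.04 to 0.95 in Rhine, while those for body wall muscle ranged from -1.77 to -0.11, from -0.45 to 0.05 and from -0.17 to 0.24. Of 6 intestine genes 5 were in use and 0 had an unadjusted p under 0.05, with a median of 0.13 in Rhine minus Danube. On Danube replicate 2 they did not run one way, with -5.52 for the gut esterase gene ges-1, -2.46 for vha-6, -0.83 for act-5, 0.16 for pept-1 and 1.61 for elt-2. Of the germline, neuron and sperm lists 2, 2 and 1 genes were in use, and 0 had an unadjusted p under 0.05. The part of these other tissues in the muscle values was not tested.

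**Figure D5:**
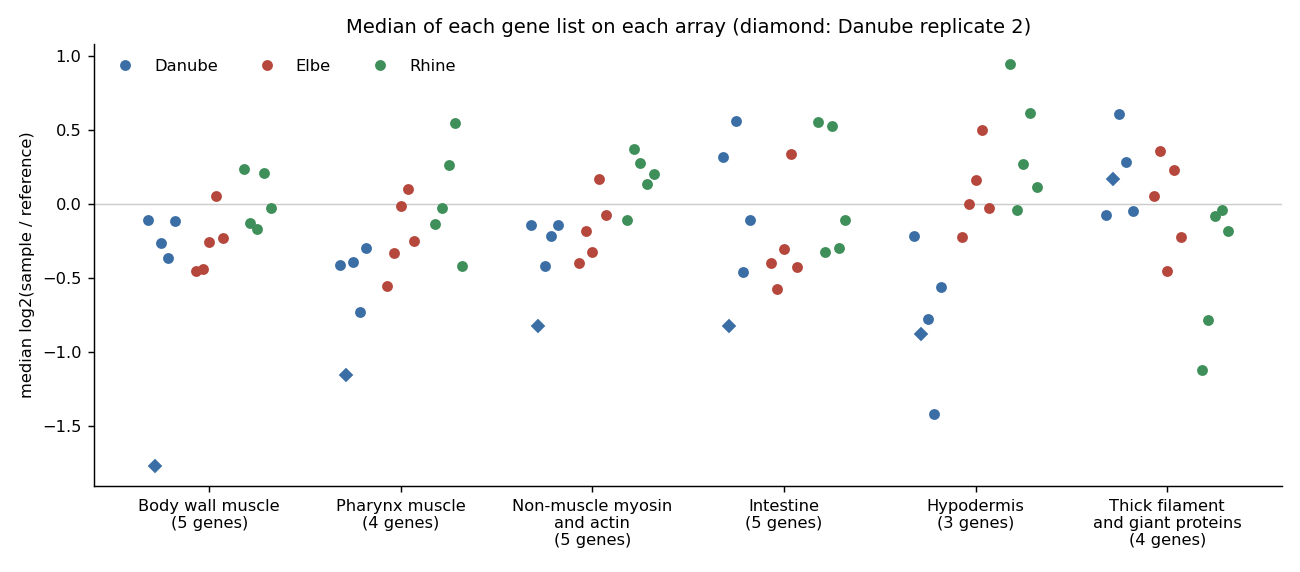
Median log2 ratio of sample to reference of 6 gene lists on each of the 15 arrays, coloured by sediment, with Danube replicate 2 as a diamond and the number of genes in use under each list. The body wall list is lowest on Danube replicate 2 (-1.77), and the thick filament partners are lowest in Rhine (-1.12).

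The probes most like each heavy chain were found by Pearson's correlation over the 15 arrays among the probes in use outside the members. They were spp-20, T11F9.10 and vps-39 for myo-3 (r of 0.950 to 0.962) and dapk-1, ztf-7 and spp-20 for myo-2 (r of 0.948 to 0.962). For unc-54 they were F42C5.9, rpl-8 and aagr-2 (r of 0.856 to 0.867). Without Danube replicate 2 these fell to between 0.357 and 0.798. For myo-1 they were clec-67, C15H9.11 and K05C4.4 (r of 0.813 to 0.825), with Spearman's rho of 0.107 to 0.536. None of these genes is in the muscle lists. Among the 28 pairs of members in use the median r was 0.475, and 0.255 without Danube replicate 2, against 0.059 over all pairs of probes in use.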

How the data were processed

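The authors deposited, per the file headers, spot intensities of both channels from BlueFuse 3.4, unnormalized and with no separate background, and a confidence score per spot. A second file deposited by the authors, with 18653 rows, gives linear ratios to each gene's median after print-tip Lowess and median polishing. Its rows were named by correlation above 0.99 with the normalized Cy5 signal (18320 rows matched, mlc-1 not). The genome build is not given in the sources used here. Symbols came from RefSeq locus tags (18089 of 19084 probes, assembly WBcel235).

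Here, log2(Cy5/Cy3) was computed from the intensities and corrected by loess within each of 48 print-tip blocks (limma 3.58.1, R 4.3.3). Control or empty spots, 2370 in number, got weight 0 and were then dropped, and spots of a probe were averaged. A probe was in use with a confidence above 0.05 on at least 3 of 5 arrays of each sediment, which kept 5347. Sediments were compared in 1 limma model of the 15 arrays (lmFit, eBayes), and p-values were adjusted by the Benjamini-Hochberg method, with a threshold of 0.05. Members outside the filter take values from the same fit over all 19084 probes. The code was tested on simulated data. Spots have no counts, so the number of arrays limits the precision.

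Members, lists and alternatives were chosen with earlier results of these data known. All members are named, with up to 3 genes per list by lowest unadjusted p and 3 most correlated probes per heavy chain. The listed name for myo-1 matched no probe, and R06C7.10 was used. Alternatives were other within-array and between-array normalizations, weights per array, stricter and looser spot filters, an added offset of 50 and 2 groups alone. Others were replicate or slide series as a block, a t-test in place of limma, the authors' value table and each array left out. The Cy5 signal alone, weak spots as missing, and leaving out both Danube replicates 2 and 4 were added after seeing the data.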

Additional observations from a re-analysis of the deposited data

Results flagged for a closer look

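Among 39 sets of 5 arrays (13 probes in 3 sediments), 5 had a highest or lowest array whose gap to its neighbour, as a share of the whole range of the set, passed Dixon's 95% value of 0.71. Chance alone would give about 1 in 20 such sets.

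For myo-1, a pharyngeal heavy chain gene, Rhine replicate 3 read 1.85 on the log2 scale and the next Rhine array -0.09, a share of 0.873. For unc-15, which encodes paramyosin, Rhine replicate 1 read 2.44 and the next Rhine array 0.56, a share of 0.765. For mup-2, a body wall troponin T gene, Danube replicate 2 read -1.77 and the next Danube array -0.16, a share of 0.75. Among the weak tropomyosin probes there was a share of 0.789 for Y105E8B.1a on Elbe replicate 5 (0.68 against 0.19) and 0.722 for Y105E8B.1e on Rhine replicate 4 (2.27 against 0.01). The low values of myo-2 and myo-3 on Danube replicate 2 did not pass this value, since Danube replicate 4 was low as well.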

How the results depend on the processing

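No member passed the adjusted test under any alternative. Differences with Danube rest on few arrays and, apart from 1 Danube array, run across the slide series. Weak spots limit mlc-1, lev-11 and myo-1. The cause of the changes below was not tested. The median of all probes for Rhine minus Danube moved from 0.24 to 0.80 with median centring.

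With the authors' value table the members' median was 0.53 for Elbe minus Danube, 0.11 for Rhine minus Danube and 0.42 for Elbe minus Rhine, and body wall minus pharynx was 0.29 for Rhine minus Danube. Reversed for Elbe minus Rhine were unc-54 (0.45), myo-3 (0.40), myo-1 (0.17), myo-2 (0.78), unc-15 (0.0050), mlc-3 (0.50) and act-4 (0.41). Reversed for Rhine minus Danube were act-4 (-0.89), myo-1 (-0.035), unc-15 (-0.22), mup-2 (-0.076) and lev-11 probes d (-0.068) and e (-0.73), and for Elbe minus Danube unc-15 (-0.21). With the Cy5 signal alone the medians were 0.74 for Elbe minus Danube and 0.26 for Elbe minus Rhine, body wall minus pharynx was 0.30 for Rhine minus Danube, and reversed values were unc-54 (0.28), myo-3 (0.24), myo-1 (0.013), myo-2 (0.63), mlc-3 (0.35) and act-4 (0.25) for Elbe minus Rhine, act-4 (-0.49) and lev-11 e (-0.34) for Rhine minus Danube and unc-15 (-0.040) for Elbe minus Danube.

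With median centring the medians were 1.23 for Rhine minus Danube and -0.86 for Elbe minus Rhine, body wall minus pharynx was 0.53 and -0.41, and reversed were act-4 (0.091, Elbe minus Danube), mup-2 (-0.58, Elbe minus Rhine), lev-11 d (-0.27, Elbe minus Rhine) and lev-11 e (0.59, -0.21 and 0.80 for Elbe minus Danube, Rhine minus Danube and Elbe minus Rhine). With a single loess curve body wall minus pharynx was 0.060 for Rhine minus Danube, and reversed were unc-54 (-0.074), myo-1 (-0.059), unc-15 (-0.14) and lev-11 e (0.20) for Elbe minus Danube and mup-2 (-0.42), lev-11 a (-0.21) and lev-11 d (-0.060) for Elbe minus Rhine. With array weights unc-54 was -0.31 and -0.14 against Danube, and mup-2 (-0.022) and lev-11 d (-0.036) reversed for Elbe minus Rhine.

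With slide series as a block the members' median for Rhine minus Danube was 0.25 and body wall minus pharynx -0.65 (Elbe) and -0.96 (Rhine) against Danube. Elbe minus Danube then read -0.89 for unc-54, -0.48 for myo-3, -0.30 for myo-1, -1.17 for mlc-1 and -0.16 for lev-11 d, and Rhine minus Danube -0.73 for unc-54, -0.36 for myo-3, -0.16 for act-4 and -0.19 for lev-11 d. Without both Danube replicates 2 and 4 the Rhine minus Danube median was 0.12, unc-54 was -0.34 and -0.17 against Danube, myo-3 -0.00733 and mlc-3 -0.000320 for Elbe, and act-4 -0.088 for Rhine. With the lowest grade as missing, body wall minus pharynx was -0.79 and -1.21 against Danube, myo-3 -0.00733 for Elbe, lev-11 a 0.42 and 0.40 against Danube and lev-11 d -0.22 for Elbe minus Rhine.

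Leaving out 1 array at a time changed the sign of unc-54 (-0.26 to 0.30), unc-15 (-0.0037 to 0.16), mlc-3 (-0.0060 to 0.20), act-4 (-0.22 to 0.12) and lev-11 a (-0.54 to 0.41) for Elbe minus Danube, of unc-54 (-0.10 to 0.46) and lev-11 e (-0.15 to 0.65) for Rhine minus Danube, and of myo-3 (-0.31 to 0.026), mup-2 (-0.040 to 0.12), lev-11 a (-0.066 to 1.24) and lev-11 d (-0.32 to 0.25) for Elbe minus Rhine. It also changed the sign of body wall minus pharynx for Elbe minus Danube (-0.26 to 0.0070).

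Same-numbered arrays deviated together weakly at most (median correlation 0.02, highest 0.13, over 0.1 in 2 of 15 pairs). Pairs with other numbers had a median of -0.0065, a highest value of 0.057 and 0 of 60 over 0.1. The best partner had the same number for 7 of 15 arrays. With a replicate block 0 members were called and the medians stayed at 0.14, 0.62 and -0.23. Over all probes, Rhine minus Danube had 0 adjusted calls, against 6 of the 2213 probes with good spots on all 15 arrays, and 689 unadjusted ones, with 118 under the slide block and 1811 under median centring. Elbe minus Rhine had 0 to 14 adjusted calls and Elbe minus Danube 0 to 5 over the alternatives.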
